A study of Homo sapiens with 8 samples.

Results

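The Hippo pathway genes described here are 10 members given by name: the transcriptional co-activators YAP1 and WWTR1 (TAZ), the DNA-binding partners TEAD1 and TEAD4, the kinases LATS1 and LATS2, the scaffolds AMOTL1 and AMOTL2, the phosphatase PTPN14, and the YAP and TAZ target gene ANKRD1. They were taken from 14220 genes with a gene-level row of their own and 16909 with exon-level rows of their own. RNA was measured in MDA-MB-231 cells, an established human line of triple-negative breast cancer that is known to carry an inactivating NF2 mutation. Both groups had been stably transduced with lentivirus, one with a control short hairpin RNA (shRNA) and one with an shRNA against the integrin α3 subunit, and both were grown on standard plastic in serum. Each group had 2 biological replicates, and the 4 Affymetrix Human Exon 1.0 ST arrays were summarised once per gene and once per exon, which gives the 8 samples. The labels used here do not say whether the transduced cells were a pool or a clone, and the series holds a single α3 hairpin condition, so effects of that hairpin other than on ITGA3 cannot be told apart from loss of α3.

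In the Hippo pathway the kinases STK3 and STK4 (MST2 and MST1), held by the scaffold SAV1, activate LATS1 and LATS2 with their cofactor MOB1. LATS kinases phosphorylate YAP1 and TAZ, which keeps these co-activators in the cytoplasm or marks them for degradation. Unphosphorylated YAP1 and TAZ enter the nucleus and bind TEAD factors, which switch on genes such as ANKRD1, CCN1 and CCN2. Adhesion to matrix and tension in the actin cytoskeleton are known inputs to the pathway in epithelial and breast cancer cells. Much of the pathway works through phosphorylation and location of proteins, which RNA arrays do not measure.

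In α3 knockdown cells ANKRD1 RNA rose 2.92-fold, while YAP1 RNA fell 1.32-fold and PTPN14 RNA, read at the exon level, fell to 0.671 of the control level. YAP1 passed at the gene level and not on the median of its exon-level probesets (adjusted p = 0.0569). The YAP1 and PTPN14 calls were each lost in some alternative fits given below. No change passed the test for WWTR1, TEAD1, TEAD4, LATS1, LATS2, AMOTL1 or AMOTL2. Of the 9 members other than ANKRD1, 8 had a negative log2 difference (knockdown minus control) on the exon-level gene median, the median over the probesets of a gene, and 7 did when dim probesets were kept. Over all 12211 genes tested on this measure 58.7% had a negative difference. Of 7 members with a gene-level row of their own, 1 rose, 1 fell and 5 did not pass. Over all 13207 transcript clusters tested, 5.99% rose and 15.3% fell, which is 21.3% in either direction. Across the members the median log2 difference was -0.13, against -0.06 over all tested clusters. With arrays centred on their medians the same values were -0.04 and 0.04.

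The hairpin target was measured first. ITGA3, which encodes the α3 subunit, stood at 3480 and 3529 intensity units in the control arrays and at 619 and 644 in the knockdown arrays, a 5.55-fold lower mean (log2 difference -2.44, adjusted p = 8.04e-05). Intensities are PLIER values, a summary of the probes of one gene on a linear scale. Since probes differ in brightness, levels are compared only within a gene. Replicate arrays correlated at r = 0.990 and 0.992, and the array medians were 177 and 186 in controls and 168 and 171 in knockdown. The 5 marker genes of the line were all above the intensity filter, and on the exon-level median 1 of them, CD44, was called lower (adjusted p = 0.0451). They had summed intensities of 21040 to 21909 in control and 19692 to 19733 in knockdown arrays. Of the markers of other cells, 3 of 7 leukocyte genes with a row, 1 of 7 fibroblast genes and 1 of 6 endothelial genes passed the filter. The leukocyte genes summed to 2263 to 2344 in control and 1977 to 1988 in knockdown arrays, the fibroblast genes to 384 to 401 and 407 to 418, and the endothelial genes to 660.3 to 704 and 638 to 690.0. CD68, a lysosomal protein of macrophages that other cells also make, held most of the leukocyte sum and was called lower (1871 and 1808 in control, 1534 and 1450.1 in knockdown arrays, adjusted p = 0.0374). Of 6 listed luminal and receptor genes, 3 passed the filter. KRT18 was among the bright genes of the line, at 4617 and 4422 in control arrays. ERBB2 was called lower (adjusted p = 0.0170) and KRT18 higher (adjusted p = 0.0366). CDH1 stood at 25.4 and 28.8 in control against 177 and 168 in knockdown arrays, which left it below the filter. Its exon-level median rose (109 and 109 against 331 and 350.3, log2 difference 1.51, adjusted p = 0.000633). That median held only the 5 CDH1 probesets that passed the filter on mean intensity over both groups. Bright knockdown readings can carry a probeset past that filter, so this p-value is weak support for a rise. ESR1 and PGR were below the filter. The part of these differences in the results below was not tested.

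**Figure D1:**
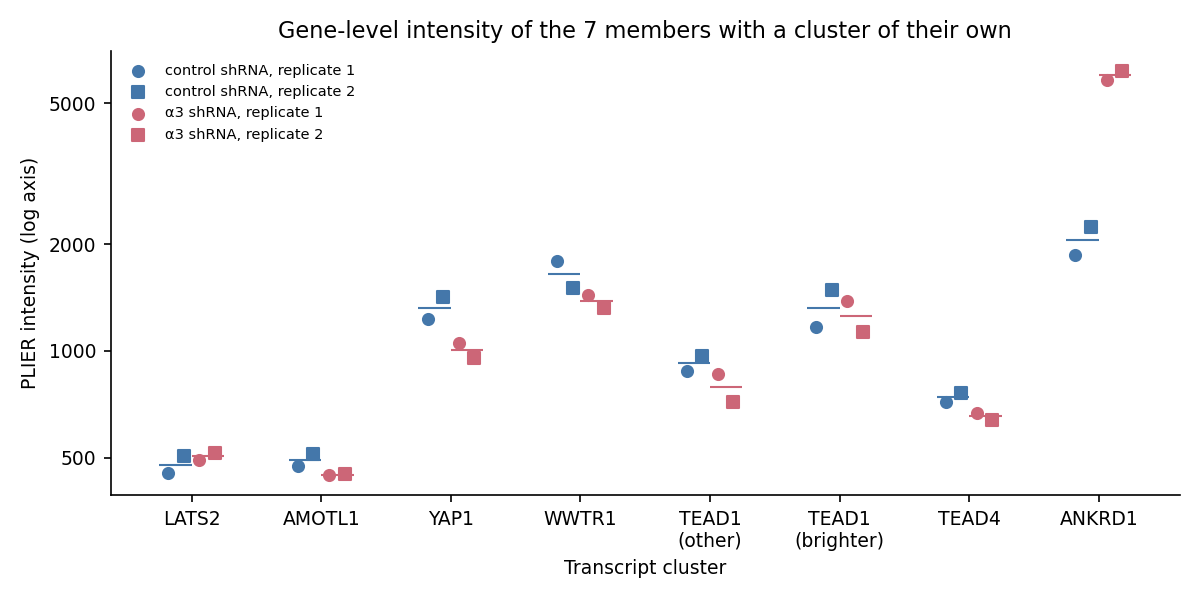
PLIER intensity of the 7 members with a gene-level row of their own in each of the 4 arrays, on a log axis, with points for arrays and short lines for group means. Both TEAD1 clusters are shown. Both ANKRD1 knockdown arrays, at 5828 and 6167, lie above the controls at 1862 and 2244, and both YAP1 knockdown arrays lie below the controls. Over all tested clusters both lie above at 22.3% and below at 39.6%.

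LATS1 and LATS2, the kinases that phosphorylate YAP1 and TAZ, showed no difference that passed, with intervals that include a fall and a rise. LATS2 had gene-level intensities of 452 and 504 in control and 491 and 516 in knockdown arrays. The groups overlapped. The log2 difference was 0.08, with a 95% interval of -0.15 to 0.30 (adjusted p = 0.622), and without control replicate 1 it was -0.00073. LATS1 shares its gene-level row with PPIL4, so it was read from its probesets, the small probe groups that each cover about one exon. The exon-level gene median, used for genes with at least 3 tested probesets, was 477 and 406 for LATS1 in control and 413 and 418 in knockdown arrays. Both knockdown arrays lay between the controls, and the log2 difference was -0.08 with an interval of -0.39 to 0.23 (adjusted p = 0.759). Without control replicate 1 the LATS1 difference was 0.032. On the same measure LATS2 differed by 0.0020, with an interval of -0.33 to 0.33 (adjusted p = 0.995). Over all genes 13.3% passed on the exon-level gene median, 3.74% higher and 9.57% lower. None of the 17 tested LATS1 probesets or the 17 tested LATS2 probesets passed in limma, where 4.58% of all tested probesets did. Of these LATS1 and LATS2 probesets, 0 had an unadjusted p under 0.05. LATS1 probesets ran from -0.34 to 0.60 on the log2 scale and LATS2 probesets from -0.20 to 0.30.

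The scaffolds and the phosphatase that hold YAP1 outside the nucleus were lower in mean, as most other members were, and only PTPN14 among them passed the test. PTPN14 encodes a non-receptor tyrosine phosphatase that binds the WW domains of YAP1. Its gene-level row also names AP3S1 and a pseudogene of it and was not used. The exon-level median of PTPN14 was 887 and 1024 in the control arrays and 649 and 634 in the knockdown arrays, or 955 ± 97.2 against 641 ± 10.5 (mean ± SD, n = 2). Both knockdown arrays were below both controls, and how often this held over all exon-level medians was not counted. The log2 difference was -0.56 ± 0.12 (SE), with an interval of -0.83 to -0.29 and an adjusted p of 0.0181. The call was lost without control replicate 2 (log2 difference -0.46, adjusted p = 0.0731), without knockdown replicate 1 (-0.58, 0.0659) and without knockdown replicate 2 (-0.54, 0.0833).

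The lower PTPN14 level was spread over the gene. Of its 24 tested probesets, 21 had a negative difference, and the knockdown arrays were both below the controls at 17, both above at 2, and overlapped at 5. Over all probesets tested, 56.3% had a negative difference, 31.3% had both knockdown arrays below and 19.4% had both above. At 2 probesets PTPN14 fell, where 3.25% of all probesets did. Probeset 2455432, the lowest of the gene, read 925 and 1025 in control and 647 and 567 in knockdown arrays (log2 difference -0.67, adjusted p = 0.0477). Probeset 2455452 read 2806 and 2933 against 2019 and 2060.3 (-0.49, adjusted p = 0.0474). The highest was probeset 2455513, with 334 and 305 in control and 423 and 353 in knockdown arrays, which did not pass (0.26, adjusted p = 0.497).

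AMOTL2, an angiomotin-family scaffold that binds YAP1 and is itself a YAP target gene, shares its gene-level row with a ribosomal pseudogene. Its exon-level median was 1465 and 1284 in control and 1164 and 1049 in knockdown arrays. Both knockdown arrays were below both controls, and how often this held over all exon-level medians was not counted. The difference did not pass over all genes (log2 difference -0.31, interval -0.57 to -0.05, adjusted p = 0.117). All 20 AMOTL2 probesets were tested and all 20 had a negative difference, from -0.44 to -0.07, with both knockdown arrays below both controls at 18. None of these probesets passed, and 8 were lower at an unadjusted p under 0.05. Over all tested probesets 56.3% had a negative difference, 31.3% had both knockdown arrays below and 3.25% passed as lower. The share at the unadjusted threshold was not counted over all probesets. AMOTL1, the paralogous scaffold, had gene-level intensities of 475 and 511 in control and 446 and 448 in knockdown arrays. The knockdown arrays were lower without overlap, as for 39.6% of all tested clusters. The difference did not pass (-0.13, interval -0.34 to 0.07, adjusted p = 0.319). Of 25 tested AMOTL1 probesets, 18 had a negative difference, 0 passed, 0 had an unadjusted p under 0.05, and the range was -0.35 to 0.10. The exon-level median of AMOTL1 gave -0.22 (adjusted p = 0.271), and 0.018 when dim probesets were kept.

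YAP1, the main effector of the pathway, fell by a small amount. Its gene-level intensity was 1233 and 1415 in the control arrays and 1053 and 958 in the knockdown arrays, or 1324 ± 129 against 1006 ± 67.5 (mean ± SD, n = 2). Both knockdown arrays were below both controls, as for 39.6% of all tested clusters. The log2 difference was -0.39 ± 0.10 (SE), with an interval of -0.63 to -0.15 and an adjusted p of 0.0380. The call sat near the threshold: the adjusted p was 0.0949 without control replicate 2 (log2 difference -0.29), 0.0811 without knockdown replicate 1 and 0.206 without knockdown replicate 2. It was also lost with no intensity filter, without an intensity trend in the variance, and after centring each array on its median (-0.30, adjusted p = 0.0575).

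At the exon level YAP1 had a median of 1282 and 1427 in control and 1088 and 979.7 in knockdown arrays, with a log2 difference of nearly the same size that did not pass (-0.38, interval -0.64 to -0.13, adjusted p = 0.0569). It passed with the stricter filter, the lower 60% left out (adjusted p = 0.0365). Of 13 tested YAP1 probesets, 12 had a negative difference, and both knockdown arrays were below the controls at 9 and above them at 1. Among all tested probesets 56.3% had a negative difference, 31.3% had both knockdown arrays below and 19.4% had both above. Probeset 3346458 passed, with 1656 and 1672 in control and 1009 and 1100.1 in knockdown arrays (-0.65, adjusted p = 0.0302). Probeset 3346456, at the other end, had 2981 and 2443 in control and 3244 and 3017 in knockdown arrays (0.21, adjusted p = 0.403). The YAP1 probesets therefore ranged from -0.65 to 0.21. None passed the test of exon usage described after ANKRD1, where 0.0142% of all probesets did, and 1 had an unadjusted p under 0.05. So few probesets passed that test that it does not show an even fall over YAP1.

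WWTR1, which encodes the YAP1 paralogue TAZ, had gene-level intensities of 1791 and 1507 in control and 1439 and 1320.1 in knockdown arrays. The knockdown arrays were both lower, as for 39.6% of all tested clusters. The difference was less than the test could separate (-0.25, interval -0.51 to 0.0051, adjusted p = 0.147). All 9 WWTR1 probesets had negative differences, from -0.38 to -0.0033, and 0 passed, with 2 lower at an unadjusted p under 0.05. The share at that threshold was not counted over all probesets. A negative difference was found at 56.3% of all tested probesets. On the exon-level median the WWTR1 difference was -0.12 (interval -0.37 to 0.13, adjusted p = 0.530).

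TEAD1 and TEAD4, which carry YAP1 and TAZ on DNA, did not pass at either level. TEAD4 had gene-level intensities of 716 and 762 in control and 668 and 640.1 in knockdown arrays. Both knockdown arrays were lower, as for 39.6% of all tested clusters (-0.17, interval -0.37 to 0.03, adjusted p = 0.189). Of 18 tested TEAD4 probesets, 17 were negative, 0 passed, 1 was lower at an unadjusted p under 0.05, and the range was -0.38 to 0.22. Among all tested probesets 56.3% were negative. TEAD1 has a pair of gene-level clusters. The brighter one read 1166 and 1482 in control and 1380.0 and 1129 in knockdown arrays, so the groups overlapped (-0.07, interval -0.42 to 0.28, adjusted p = 0.772). Its sign turned to 0.018 after centring on array medians, to 0.097 without control replicate 2 and to 0.069 without knockdown replicate 2. The other TEAD1 cluster read 879.7 and 967 against 863 and 718 (-0.22, adjusted p = 0.204). Of 17 TEAD1 probesets, 15 were negative, 0 passed, 1 was lower at an unadjusted p under 0.05, and the range was -0.46 to 0.24. For TEAD1 and TEAD4 alike, the share at the unadjusted threshold was not counted over all probesets. On the exon-level median the differences were -0.24 for TEAD1 (interval -0.56 to 0.08, adjusted p = 0.312) and -0.20 for TEAD4 (interval -0.47 to 0.06, adjusted p = 0.301).

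ANKRD1 encodes an ankyrin-repeat protein of nucleus and sarcomere that is widely used as a readout of YAP and TAZ with TEAD. The 250 bases before its RefSeq start are printed with those of CCN2, another textbook target, and of the members that fell. They are printed because TEAD factors bind the core motif GGAATG. CCN1 was also looked up, and no window was found for it. RefSeq windows are on GRCh38.p14, written 5′ to 3′ on the strand of the gene, with the motif or its reverse complement CATTCC in capitals. The windows are chr10:90921088-90921337 (minus strand) for ANKRD1, chr6:131951373-131951622 (minus) for CCN2, chr11:102110197-102110446 (plus) for YAP1 and chr1:214551603-214551852 (minus) for PTPN14.
ANKRD1: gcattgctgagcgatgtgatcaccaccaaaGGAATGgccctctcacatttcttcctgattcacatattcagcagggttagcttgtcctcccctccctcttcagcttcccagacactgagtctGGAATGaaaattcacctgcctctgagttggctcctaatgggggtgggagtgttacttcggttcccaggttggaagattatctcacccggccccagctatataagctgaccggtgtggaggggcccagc
CCN2: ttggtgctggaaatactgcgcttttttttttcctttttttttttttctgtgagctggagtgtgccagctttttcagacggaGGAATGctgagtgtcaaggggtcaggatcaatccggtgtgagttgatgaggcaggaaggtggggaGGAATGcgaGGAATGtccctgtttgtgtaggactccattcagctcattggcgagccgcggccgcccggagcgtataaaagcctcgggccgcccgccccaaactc
YAP1: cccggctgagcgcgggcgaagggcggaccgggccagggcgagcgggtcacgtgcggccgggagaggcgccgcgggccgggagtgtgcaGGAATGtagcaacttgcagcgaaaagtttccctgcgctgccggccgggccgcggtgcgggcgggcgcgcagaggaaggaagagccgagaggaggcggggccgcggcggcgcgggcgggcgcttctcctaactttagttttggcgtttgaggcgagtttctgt
PTPN14: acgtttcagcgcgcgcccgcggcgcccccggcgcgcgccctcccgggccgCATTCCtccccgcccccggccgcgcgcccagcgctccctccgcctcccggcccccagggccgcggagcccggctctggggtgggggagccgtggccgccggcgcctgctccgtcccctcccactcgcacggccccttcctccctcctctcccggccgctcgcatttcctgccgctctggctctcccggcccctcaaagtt
The motif stood at 220 and 128 bases before the start in ANKRD1 and at 169, 104 and 95 in CCN2. It stood at 162 in YAP1 and, on the other strand, at 200 in PTPN14. Of 35116 such windows, 11.9% held at least 1 match on either strand, 0.940% at least 2 and 0.0826% at least 3. RefSeq windows were found for 8 of the 10 members, and of their 11 windows 4 held a match, the other being one of the AMOTL2 windows. A match in letters is a description and no measure of binding.

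ANKRD1 RNA was the one member that rose. Its gene-level intensity was 1862 and 2244 in the control arrays and 5828 and 6167 in the knockdown arrays, or 2053 ± 269.9 against 5998 ± 239 (mean ± SD, n = 2). The knockdown arrays were both far above both controls, and 22.3% of all tested clusters had both above. The log2 difference was 1.54 ± 0.11 (SE), with an interval of 1.29 to 1.80 and an adjusted p of 0.00110. Counted from the largest positive difference, ANKRD1 ranked 16 among the 13207 tested clusters. Over the alternative settings the difference ran from 1.41 to 1.68 and the adjusted p from 5.28e-05 to 0.00754, and the call was kept in each. Its exon-level median was 1688 and 2284 in control and 5614 and 7033 in knockdown arrays (1.67, interval 1.32 to 2.02, adjusted p = 0.000536).

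The rise was read by nearly all ANKRD1 probesets. All 14 ANKRD1 probesets were tested, all 14 had both knockdown arrays above both controls, and 13 rose, where 1.33% of all tested probesets did. Probeset 3299971 had the largest difference, with 479 and 786 in control and 2482 and 3149 in knockdown arrays (2.16, adjusted p = 0.00180). Probeset 3299988 had the smallest, with 348 and 321 in control and 714 and 465 in knockdown arrays, and alone did not pass (0.76, adjusted p = 0.0944).

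**Figure D2:**
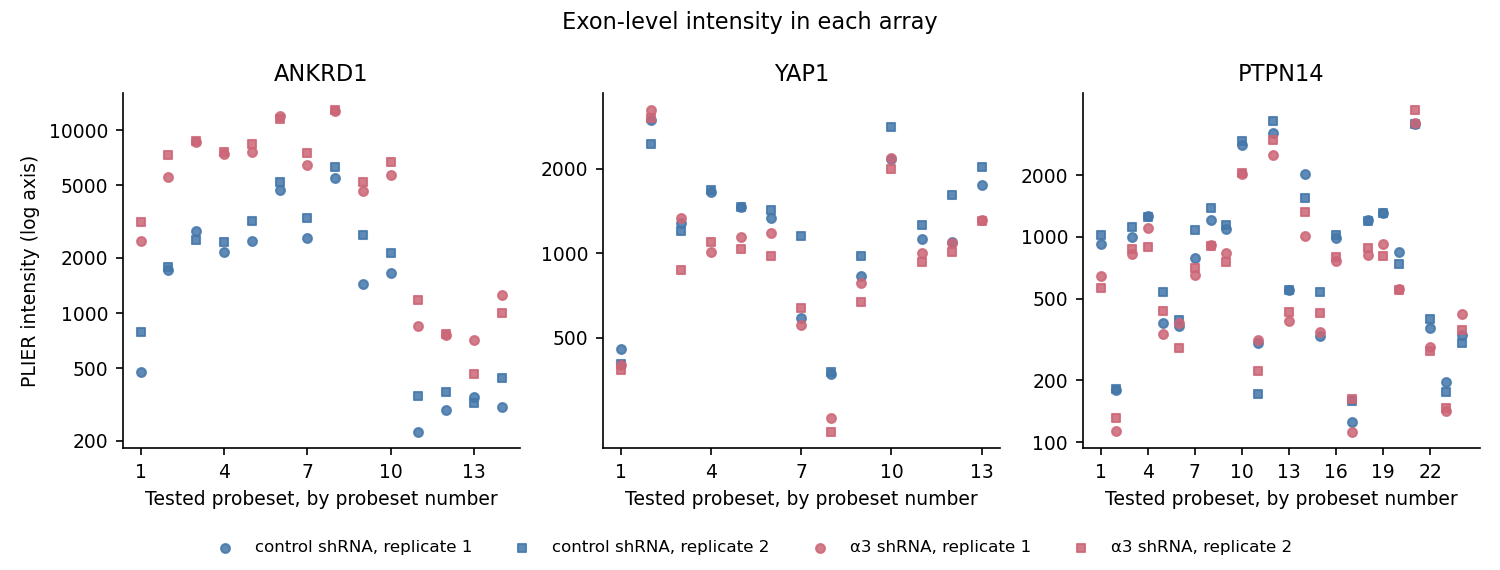
PLIER intensity of each tested probeset of ANKRD1 (14), YAP1 (13) and PTPN14 (24) in each of the 4 arrays, on a log axis, in order of probeset number. In ANKRD1 both knockdown arrays lie above both controls at all 14 probesets, while in YAP1 and PTPN14 they lie below at 9 and 17. Over all tested probesets they lie above at 19.4% and below at 31.3%.

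Exon usage was compared by subtracting, from the log2 value of a probeset, the mean over all other tested probesets in that gene. None of the 174 tested probesets of the members passed this test in limma, where 0.0142% of all 155391 probesets tested in this way did (0.00837% higher, 0.00579% lower). Of the 174, 7 had an unadjusted p under 0.05, a threshold at which the share over all probesets was not counted. The 7 comprised 3 in ANKRD1, 2 in PTPN14, 1 in TEAD1 and 1 in YAP1. In all, 174 of 192 probesets of the members passed the intensity filter, and 13 rose and 3 fell. Without ANKRD1, 160 probesets were tested, 0 rose in the limma test, with 0 higher at an unadjusted p under 0.05, and 3 fell. Over all members 29 probesets were lower at that unadjusted threshold, among them 12 in PTPN14, 8 in AMOTL2 and 5 in YAP1. The share over all probesets at that threshold was not counted. Of the 160 probesets without ANKRD1, 80.6% had a negative difference, where 56.3% of all tested probesets did. After centring the shares were 72.5% and 47.0%. At 51.9% both knockdown arrays were below both controls, against 31.3% of all tested probesets. Probesets of one gene share their RNA and arrays and are not replicates.

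**Figure D3:**
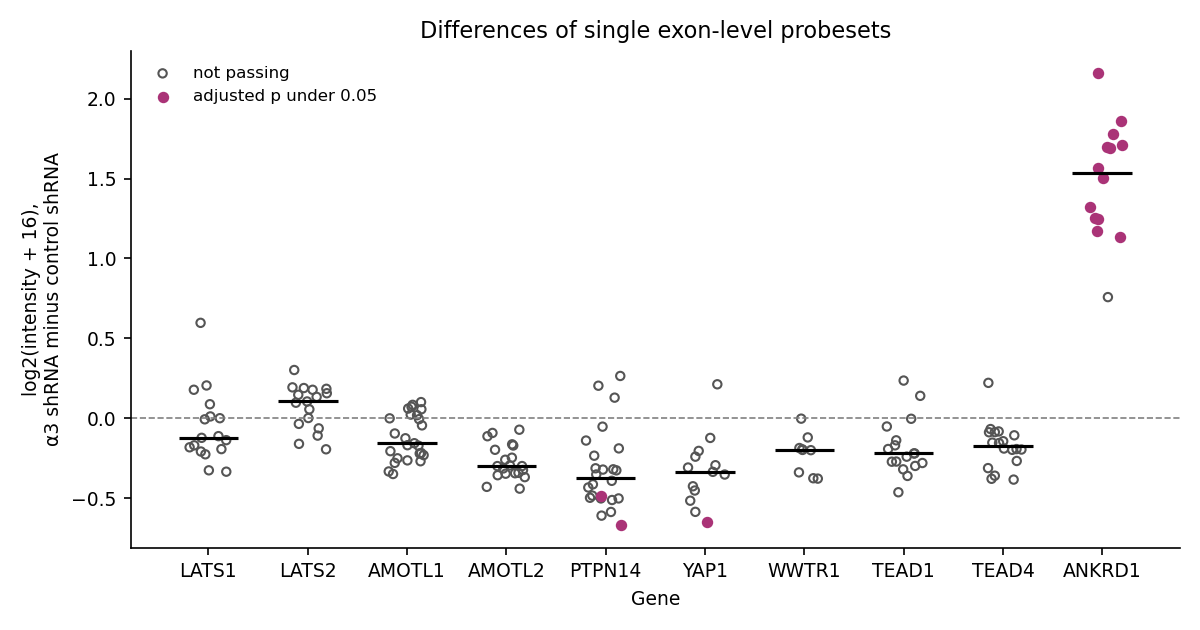
Log2 difference, knockdown minus control, of every tested probeset of the 10 members, with filled points for probesets that passed an adjusted p of 0.05 and a black line at the median of each gene. ANKRD1 lies between 0.76 and 2.16, apart from the other members, whose probesets lie between -0.67 and 0.60.

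The other genes of the pathway were read from 4 lists with 82 genes in all: 70 had a gene-level row of their own and 56 of these were tested. Of the 56, 2 rose, 5 fell and 49 did not pass, against 5.99% higher and 15.3% lower over all clusters, and their median log2 difference was -0.06, or 0.020 under quantile normalization and 0.030 after centring, and after centring 4 rose and 4 fell. In the kinase core 2 of 13 tested genes rose and the other 11 did not pass. SAV1, the scaffold that joins MST kinases to LATS, had 1184 and 1491 in control and 2043 and 2079 in knockdown arrays (0.63, adjusted p = 0.0157). MAP4K4, a kinase that can phosphorylate LATS beside the MST kinases, had 468 and 538 against 722 and 769 (0.56, adjusted p = 0.0135). Both genes also passed on the exon-level median, at 0.87 and 0.58. Without knockdown replicate 2 the adjusted p was 0.0618 for SAV1 and 0.0904 for MAP4K4, and without knockdown replicate 1 it was 0.0521 for MAP4K4.

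The remaining core genes named here did not pass. STK3 had 301 and 385 in control and 329 and 351 in knockdown arrays (-0.0012, adjusted p = 0.997), and its sign turned under quantile normalization (0.10), centring (0.090), without control replicate 2 (0.17) and without knockdown replicate 1 (0.043). STK4 differed by 0.18 (interval -0.04 to 0.40, adjusted p = 0.222). MOB1A, the LATS cofactor, had 3054 and 2796 in control and 2317 and 2474 in knockdown arrays, without overlap (-0.29, adjusted p = 0.0579). Over all tested clusters 39.6% had both knockdown arrays below both controls.

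Among 20 tested upstream genes, which connect polarity and cell contacts to the kinases, 3 fell and 17 did not pass. Over all tested clusters 15.3% fell and 5.99% rose. RASSF5, a Ras-binding adaptor of the MST kinases, had 380 and 369.8 in control and 192 and 207 in knockdown arrays (-0.86, adjusted p = 0.00406). LLGL1, a basolateral polarity protein, had 399 and 436 against 265 and 278 (-0.59, adjusted p = 0.0105). WWC2, a KIBRA-family protein that activates LATS, had 402 and 439 against 305 and 305 (-0.44, adjusted p = 0.0221). RASSF5 and WWC2 also passed on the exon-level median, and LLGL1 did not (-0.47, adjusted p = 0.0860). The LLGL1 call was lost without either knockdown array (adjusted p 0.0691 and 0.0610), and the WWC2 call without control replicate 2 or either knockdown array (0.0568 to 0.140). NF2, which encodes merlin, had 190.1 and 225 in control and 197 and 202 in knockdown arrays (-0.05, adjusted p = 0.824), with the sign turned under quantile normalization (0.054), centring (0.044) and without control replicate 2 (0.065). AMOT, the angiomotin beside AMOTL1 and AMOTL2, was below the gene-level filter at 95.7 and 109 in control and 53.2 and 45.3 in knockdown arrays, and its exon-level median did not pass (-0.40, adjusted p = 0.117).

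Of 15 tested genes for phosphatases and protein turnover, 1 fell and 14 did not pass, and of 8 tested TEAD and cofactor genes, 1 fell and 7 did not pass. The share that fell over all tested clusters was 15.3%. TP53BP2, which encodes ASPP2 and can bring a phosphatase to YAP and TAZ, had 959 and 917 in control and 733 and 715 in knockdown arrays (-0.37, adjusted p = 0.0222). RUNX1, a transcription factor that can bind YAP1, had 653 and 717 against 533 and 508 (-0.38, adjusted p = 0.0288). Neither passed on the exon-level median (adjusted p = 0.0868 and 0.108), and each call was lost in 3 of the 4 fits that left out an array. The TP53BP2 call was also lost after centring (adjusted p = 0.0560), and the RUNX1 call with no intensity filter (0.0559). TEAD2 had 293 and 305 in control and 243 and 259.9 in knockdown arrays, which did not pass (-0.23, adjusted p = 0.139), while its exon-level median did (-0.58, adjusted p = 0.0488). TEAD3 differed by -0.15 (adjusted p = 0.246). VGLL3, a TEAD cofactor, was read at 2.6 to 5.6 in the 4 arrays, below the filter, and VGLL4, a TEAD antagonist without a gene-level row of its own, did not pass on the exon-level median (0.12, adjusted p = 0.613). On that measure 2 of the 18 tested genes of the turnover list fell, CSNK1E and STRIP2, where 9.57% of all genes did. These genes are named after their values were seen.

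Other YAP and TAZ target genes were called in both directions. Of 22 listed, which include the members ANKRD1, LATS2, AMOTL2 and PTPN14, 18 were tested at the gene level. Of these 2 rose, 5 fell and 11 did not pass, with a median log2 difference of -0.09, or 0.0059 after centring, where 3 rose and 5 fell. Over all tested clusters 5.99% rose and 15.3% fell, and the median was -0.06, or 0.04 after centring. Among the 16 tested targets that are not members, 1 rose, 5 fell and 10 did not pass. The list comes from a published pan-cancer signature of YAP and TAZ targets, and why these genes fell was not tested.

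CCN2, a matricellular protein and a classic target beside ANKRD1, had 2245 and 2277 in control and 2824 and 2622 in knockdown arrays. The knockdown arrays were both higher, as for 22.3% of all tested clusters. The difference fell short of the threshold (0.27, interval 0.08 to 0.45, adjusted p = 0.0564). It passed with the stricter filter, under quantile normalization and after centring (adjusted p 0.0250 to 0.0497), and its exon-level median did not pass (0.21, adjusted p = 0.274). CCN1, the related matricellular target, had 3754 and 3507 in control and 4242 and 4023 in knockdown arrays (0.19, adjusted p = 0.154). TGFB2, a TGF-beta ligand, rose from 1777 and 1719 to 2324 and 2102 (0.34, adjusted p = 0.0352). The TGFB2 call was lost with no filter, without the intensity trend and in each fit that left out an array, and its exon-level median passed (0.35, adjusted p = 0.0455).

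The targets that fell were led by DOCK5, a Rac exchange factor, with 552 and 618 in control and 348 and 347 in knockdown arrays (-0.72, adjusted p = 0.00561). AXL, a receptor tyrosine kinase, had 4130.3 and 4217 against 2914 and 2908 (-0.52, adjusted p = 0.00691). NUAK2, an AMPK-related kinase, had 308 and 322 against 189 and 185 (-0.71, adjusted p = 0.00651), and its call was lost without knockdown replicate 2 (0.0510). RBMS3, an RNA-binding protein, had 373 and 361 against 214 and 224 (-0.71, adjusted p = 0.00599). IGFBP3, a binding protein of insulin-like growth factors, had 771 and 799 against 517 and 479 (-0.64, adjusted p = 0.00583). In all 5 both knockdown arrays lay below both controls, as for 39.6% of all tested clusters. Since the 5 were picked because they passed as lower, this adds little. All 5 also passed as lower on the exon-level median, where 9.57% of all genes did. That median is a second reading of the same arrays and not a further replicate.

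**Figure D4:**
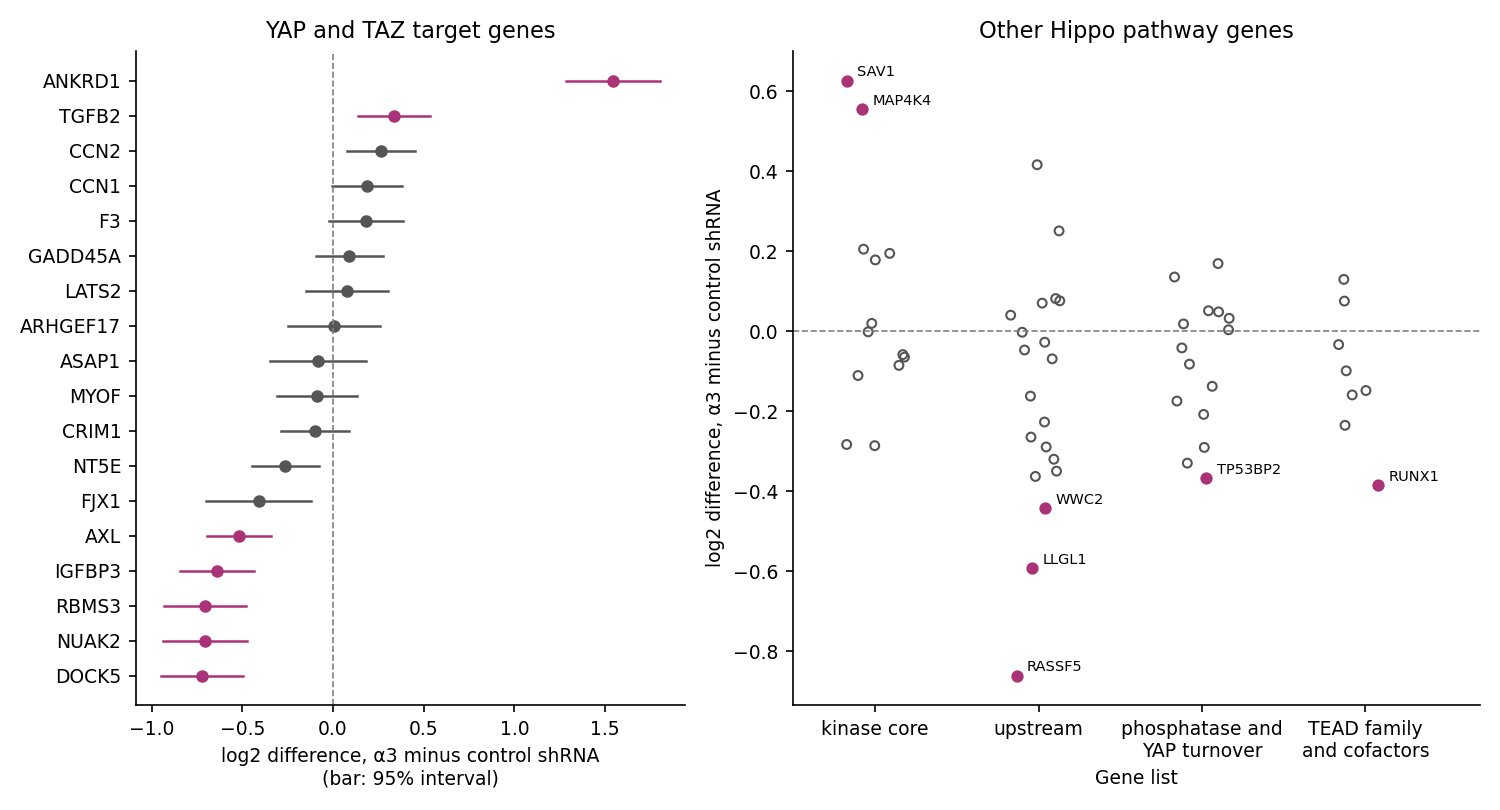
Log2 difference, knockdown minus control, of the tested genes of the Hippo lists and of YAP and TAZ target genes at the gene level. Purple points passed an adjusted p of 0.05, grey or open points did not, and bars for the targets are 95% intervals. ANKRD1 at 1.54 stands above every other target, and the 5 targets that fell lie between -0.72 and -0.52.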

How the data were processed

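The deposited values are PLIER intensity values on a linear scale, made by the authors with Affymetrix Expression Console on core-gene and core-exon probesets, per the labels and the submitters' processing notes. A different program, Affymetrix's Exon Array Computational Tool, is named in the series text. Not given in the sources used here are program versions, the background correction, and whether arrays were normalized to each other. The sample titles give each group and replicate.

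Rows were named through the platform annotation, with symbols updated through RefSeq, and only rows with 1 symbol were named: 14432 of 22011 gene-level and 261273 of 287329 exon-level rows. Of the others, 2408 and 9155 had several symbols, and 5171 and 16901 had none. A gene with several clusters was represented by its brightest. The gene-level rows of LATS1, AMOTL2 and PTPN14 name further genes and were not used. YAP1 has a further gene-level row that also names STXBP5, and that row was not used either.

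Intensities were transformed as log2(value + 16), which understates changes of dim genes. Rows in the lower 40% by mean (under an intensity of 106.5 at the gene level) were left out. Group was the only term of the limma fit (limma 3.58.1, R 4.3.3), which used lmFit and eBayes with an intensity trend and left 2 residual degrees of freedom. Two-sided p-values were adjusted by Benjamini-Hochberg over all tested rows, with a threshold of 0.05. Fold differences are ratios of group mean intensities. Probesets and the exon-level gene median were tested in the same way, and exon usage without the trend. Each step was tested on simulated data. Alternatives were other offsets (1 and 64), no filter or the lower 60% left out, no trend, quantile normalization, centring on array medians, a replicate block, leaving out each array, and the exon-level median.

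The text names all members, ITGA3, a fixed set of pathway genes and every gene-level call of a list with up to 6 calls. For each member it gives the highest and lowest probeset difference. The members and lists were chosen with earlier results of these data known. Further tools were Python 3.11.15 with pandas 2.3.3 and matplotlib 3.10.9, and the data.table package, version 1.17.8, for reading files.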

Additional observations from a re-analysis of the deposited data

How the results depend on the processing

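The call of ITGA3 (-2.47 to -2.35) and of ANKRD1 (1.41 to 1.68) was kept under every alternative run. With 4 arrays, calls near the threshold depended on single arrays. YAP1 lost its call with no filter (-0.39, adjusted p = 0.0796), without an intensity trend (-0.39, 0.0569), after centring (-0.30, 0.0575) and on the exon-level median (-0.38, 0.0569). It ranged from -0.49 to -0.29 when an array was left out, and PTPN14 from -0.66 to -0.46. The count of members called at the gene level was 2, and 1 with no filter, without the trend and after centring, and it ran from 1 to 2 without single arrays. On the exon-level median it ran from 1 to 2. At the gene level 7 listed pathway genes were called, and without single arrays the count, which can hold other genes, was 1 to 9, with 2 without knockdown replicate 1 and 1 without knockdown replicate 2. The 16 called probesets of members became 2 with no filter, 9 without the trend and 13 to 14 without single arrays. Target genes gave 5 to 7 calls without single arrays.

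Replicate numbers were not taken as pairing, since the labels name no shared batch and 2 pairs do not settle it, although deviations of same-numbered arrays correlated at 0.29 (gene level) and 0.30 (exon level). With a replicate block the pathway count was 14 (3 higher, 11 lower), the probeset count 32 and the exon-median count of members 4, with YAP1 (adjusted p = 0.0240) and AMOTL2 (0.0407) added. MOB1A (0.0420) and CCN2 (0.0416) also passed with it.

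Signs turned for TEAD1 after centring (0.018) and without single arrays (-0.24 to 0.097), for STK3 under quantile normalization (0.10), centring (0.090) and without single arrays (-0.17 to 0.17), for NF2 in the same settings (0.054, 0.044 and -0.16 to 0.065), and for the AMOTL1 exon median with no filter (0.018). Without single arrays the exon median ran from -0.19 to 0.032 for LATS1 and from -0.095 to 0.099 for LATS2, and the gene-level LATS2 difference from -0.00073 to 0.15. None of these was called. Over all clusters, 791 rose and 2016 fell, against 1354 and 1679 after quantile normalization and 1496 and 1507 after centring, with median shifts of -0.06, 0.02 and 0.04. Where a value or the construction of an alternative does not show why a call moved, the cause was not tested. The exon usage test had no trend to remove, so that alternative was not run for it.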
